A study of Mus musculus with 36 samples.

Results

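Which RNAs a father's sperm carries, and which of them its embryo holds or lacks, was read from 2 kinds of library of the low-fat arm, 3 libraries of cauda epididymal sperm and 3 of morulae, that is 6 of the 36 libraries of the series. The 3 sperm columns whose names start with l in the sperm count table were set against the 3 columns marked ML in the morula count table, and genes were joined by their identifiers. Sperm came from wildtype C57BL/6 males (C57BL/6N in the study's methods) that were fed a low-fat diet (LFD, 10 kcal% fat) for 2 weeks and were 8 weeks old. They were taken from the cauda epididymis, passed through a swim-up, kept in a cell lysis buffer and looked at under the microscope for somatic cells. Morulae were made in vitro by fertilizing oocytes of unexposed wildtype females with sperm of LFD males, and were picked after 72 h of culture. All 6 libraries share the wildtype background and the father's diet. The number of males or embryos behind a library is not given in the sources used here, so p-values measure the spread between these libraries, which may be in part technical. A morula holds RNA from the maternal and the paternal genome and from the oocyte, and the counts do not tell these apart. The high-fat (HFD, 60 kcal% fat) sperm and morula libraries, 3 and 3, were used only beside the low-fat values.

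A mature spermatozoon has condensed its genome on protamines and has shut down most nuclear transcription, so its nuclear-encoded RNA is largely what spermatogenesis left behind together with RNA taken up during transit through the epididymis. A morula is a ball of cleaving cells that has degraded most maternal transcripts, has switched on its own genome and is about to separate into trophectoderm and inner cell mass. Mitochondria of the embryo come from the oocyte, and mitochondrial DNA (mtDNA) is transcribed as long precursors that are cut into rRNAs, tRNAs and the mRNAs of respiratory chain subunits.

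The sperm libraries held 2560219 to 3050543 counts each and the morula libraries 11471251 to 12133872. Counts on nuclear genes, the base of the CPM values below (counts scaled to 1000000 nuclear counts per library), were 1062908 in sperm A, 1072091 in sperm B and 1443161 in sperm C, and 8552662 to 9367661 in the morula libraries, 7.46 times as many over the groups. The letters A, B and C only name libraries. A count of 3 over a group, the floor used for bounds below, is 0.838 CPM in sperm and 0.112 CPM in morulae, and covers counting error only. Bounds compare counts pooled over the 3 libraries of a group, so deeper libraries weigh more. Replicates differed beyond sampling noise in every pair (chi-square per degree of freedom 8.20 to 63.1), and the sperm libraries were far more unlike each other than the morula libraries were for the lists described below. Sperm and morula were counted in separate tables, sperm from single-ended and morulae from paired-ended reads of 75 bases, so cell type, table and read layout cannot be told apart in any fold change given here.

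Of 13679 genes tested, 8962 differed between LFD sperm and LFD morula (edgeR quasi-likelihood test, Benjamini-Hochberg adjusted p under 0.05), which is 65.5% of those tested. In sperm 5143 were higher (37.6% of the tested) and 3819 lower (27.9%), and the libraries of the groups did not overlap for 9823 genes (71.8%). The median gene was higher in sperm by 0.36 on the log2 scale with nuclear counts as the base. That centre moved with the scaling, to -0.55 with all counts as the base, -0.13 with TMM (trimmed mean of M values) over all genes, -0.04 with TMM over nuclear genes and -0.01 with DESeq2. The share of calls that were higher in sperm moved with it, from 57.4% to 39.9%, 47.6%, 49.5% and 50.2%. Small fold changes therefore have a direction only relative to the chosen base, whereas most of the genes described next differ by far more than these shifts. A gene that passes the filter on low counts only through the cell type where it is high is bound to differ, so counts over the tested members of a list describe that list and are no support for it.

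A gene is called held by a cell type here when it reached 10 CPM in each of its 3 libraries, a description with no test. Sperm held 7013 genes and morulae 6832, and 4646 were held by both, 99.2% of them protein-coding. These shared genes took 62.1% ± 1.02 (SD, n = 3) of the nuclear counts of sperm and 79.7% ± 0.07 (SD, n = 3) of those of morulae. Sperm held 694 genes that were under 1 CPM in every morula library, and 279 of them had no count in any of the 3, although these were sequenced more deeply. The 279 genes took 9.91% ± 1.38 (SD, n = 3) of nuclear counts in sperm. In the other direction morulae held 309 genes that were under 1 CPM in every sperm library, that is at 0 or 1 count, and 210 with no sperm count at all, which took 3.18% ± 0.04 (SD, n = 3) of morula nuclear counts. The lower depth of sperm limits this second class. Depth also moves the count of 279 in the first direction. When the morula counts were thinned to 1062908, the depth of the shallowest sperm library, 536 genes held by sperm had no morula count. Of the 309 genes held by morulae and under 1 CPM in sperm, 71.5% were protein-coding and 43 were processed pseudogenes. Processed pseudogenes numbered 6 among all genes held by sperm and 102 among all held by morulae.

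**Figure D1:**
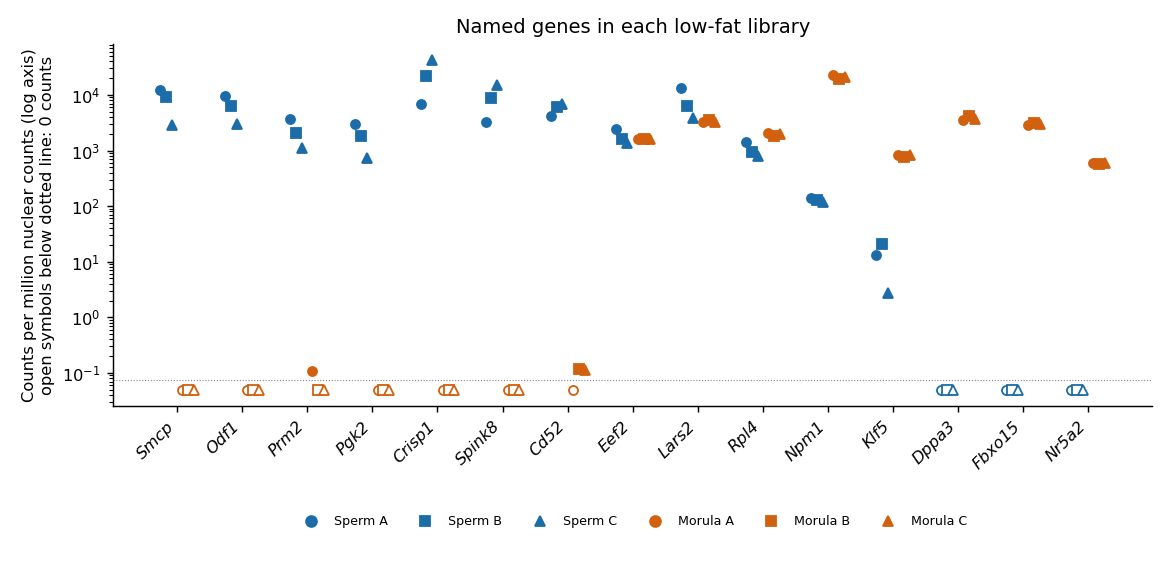
CPM of nuclear counts (log axis) of 15 named genes in each of the 3 sperm (blue) and 3 morula (orange) LFD libraries, with circles, squares and triangles for libraries A, B and C, and open symbols under the dotted line for 0 counts. Smcp, Odf1, Pgk2, Crisp1 and Spink8 have no morula count, Dppa3, Fbxo15 and Nr5a2 have no sperm count, and of these genes only Eef2 overlaps between the groups, with Lars2 and Rpl4 close to overlapping.

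The most abundant RNA that sperm held and morulae lacked was Crisp1 (chr17:40293758-40319207, minus strand, GRCm38), which encodes a secreted epididymal protein that coats the sperm surface. It stood at 6780, 22205 and 41660 CPM in sperm A, B and C and at 0 counts in all 3 morula libraries, at least 226505-fold higher in sperm (edgeR adjusted p = 5.05e-05). Spink8, a Kazal-type protease inhibitor gene, had 3232, 8663 and 15208 CPM in sperm and no morula count. Serpina1f, a serpin gene, had 1344, 3300 and 5452 CPM, and Ces5a, a secreted carboxylesterase gene, had 930, 1727 and 2895 CPM, again with no count in morulae. All 4 were highest in sperm C and lowest in sperm A. Wfdc16, which encodes a WAP-domain protein, was more even, at 1669, 2009 and 1839 CPM, and also had no morula count. Of 28 genes of epididymal epithelium, 15 passed the filter on low counts and all 15 were higher in sperm, beside 37.6% of all genes tested, with a median difference of 10.86 on the log2 scale, or 10.38 with genes absent from morulae set at their bound, beside 0.36 over all genes. The other 13 were not tested, and 7 of the 28 had no count in any sperm library. Gpx3, a secreted glutathione peroxidase gene, reached 7439, 8510 and 6919 CPM in sperm against 4.70, 5.50 and 6.96 CPM in morulae, a log2 difference of 10.38 (SE 0.35, edgeR adjusted p = 2.85e-06). The smallest change of the list was that of Aqp9, a water and glycerol channel gene, with 89.4, 308 and 441 CPM against 70.6, 75.9 and 63.6. Its log2 difference was 2.00 (SE 0.49, edgeR adjusted p = 0.00652), and 1.30 without a call when all counts were the base.

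Genes of the sperm tail and its sheath had the opposite order among the sperm libraries. Smcp (chr3:92583867-92588997, minus strand, GRCm38), which encodes a cysteine-rich protein of the mitochondrial capsule of the midpiece, had 12114, 9329 and 2868 CPM in sperm A, B and C and no morula count, at least 67147-fold higher in sperm (edgeR adjusted p = 3.3e-05). Odf1 (chr15:38219203-38226735, plus strand, GRCm38), an outer dense fibre gene, had 9489, 6192 and 3038 CPM and no morula count, at least 52461-fold higher. Odf2, another outer dense fibre gene that is also used at centrosomes, had 2197, 1301 and 591 CPM in sperm and 59.5, 48.8 and 47.6 CPM in morulae, a log2 difference of 4.71 (SE 0.48, edgeR adjusted p = 7.08e-05). Of 29 tail genes 22 were tested, 21 of them were higher in sperm and none was lower, with a median log2 difference of 7.92. The smallest of these calls, Fsip1, a fibrous sheath interacting gene, had 16.0, 5.60 and 6.24 CPM against 1.49, 3.74 and 3.08 (log2 difference 1.72, SE 0.67, edgeR adjusted p = 0.0473), and its call was lost without any single sperm library (1.09 without A, 1.98 without B, 1.95 without C). In 16 of the 29 genes sperm A was highest and sperm C lowest, and in 2 the reverse held. Among all genes held by sperm these shares were 18.6% and 26.7%. Among those held by sperm and under 1 CPM in morulae they were 32.4% and 22.0%. Their summed level was 30200 CPM in sperm A, 20755 in B and 8289 in C, against 69.2 to 71.6 CPM in morulae.

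Chromatin genes of late spermatids were as far apart. Of 12 matched genes for protamines, transition proteins and spermatid histones, 11 were tested, 9 were higher in sperm and 1 was lower, with a median log2 difference of 9.90, or 7.60 with absent genes at their bound. Prm2, a protamine gene, had 3744, 2049 and 1095 CPM in sperm and 1 count in the morula libraries together. The ratio of sperm to morula was 57837, with a counting interval of 10378 to 2284740. The one that was lower was H3f3a, a gene of the replacement histone H3.3, with 1.88, 2.80 and 3.46 CPM in sperm and 307, 336 and 269 CPM in morulae (log2 difference -6.76, SE 0.32, edgeR adjusted p = 4.72e-06). Crisp2, which encodes a protein of the acrosome and tail, had 2639, 1636 and 710 CPM in sperm and no morula count, and Prr30, a proline-rich protein gene, 2114, 1532 and 638 CPM and none.

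Glycolysis genes were read by isoform, and both kinds had more genes higher than lower in sperm per nuclear count. Sperm glycolysis isoforms are copies of glycolytic genes used in the germ line, and 6 of the 7 tested were higher in sperm with none lower, at a median of 7.53 on the log2 scale. Pgk2, the germ-line phosphoglycerate kinase, stood at 3041, 1860 and 746 CPM in sperm A, B and C and had no morula count, at least 15663-fold higher. The exception was the glucose transporter gene Slc2a3, which is also one of the epithelial and trophectoderm genes below. It had 135, 262 and 561 CPM against 162, 173 and 137, and these groups overlapped (log2 difference 1.02, SE 0.45, edgeR adjusted p = 0.0739). Without sperm A it was called higher (1.39). Among 12 somatic isoforms, 6 were higher and 3 lower in sperm, at a median of 0.92, beside 37.6% and 27.9% of all genes and a median of 0.36. With all counts as the base 4 were higher and 5 lower, at a median of 0.10. Ldhb, a lactate dehydrogenase gene, had 422, 409 and 559 CPM in sperm and 11.3, 10.5 and 9.70 in morulae (log2 difference 5.46, SE 0.26, edgeR adjusted p = 4.72e-06). Gapdh went the other way, with 6.59, 7.46 and 4.16 CPM in sperm and 319, 263 and 363 in morulae (log2 difference -5.72, SE 0.32, edgeR adjusted p = 5.9e-06). Of the 75-base windows in the longest Gapdh transcript 22.7% also occur in another gene, a property taken up below. Of 5 somatic isoforms with up to 10% of windows shared 3 were higher in sperm and 0 lower. Of 7 with over 10% shared 3 were higher and 3 lower.

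Few RNAs of the parts of sperm that meet the egg passed the filter on low counts. Of 28 genes of the acrosome and egg fusion 9 were tested and 7 were higher in sperm, none lower, at a median of 6.98. A sperm count was present for 22 of the 28, while 5 had no count in any of the 6 libraries. Without the filter 23 were tested, 18 higher and 1 lower. Spaca6, a gene needed for fusion with the egg, had 33.9, 24.3 and 28.4 CPM in sperm and 22.0, 28.2 and 27.6 in morulae, overlapping (log2 difference 0.15, SE 0.32, edgeR adjusted p = 0.696). Of 14 sperm ion channels and pumps 7 were tested and 6 were higher, none lower. Atp1a4, the sodium pump subunit of sperm, had 145, 54.1 and 40.2 CPM and no morula count, at least 671-fold higher, whereas the proton channel gene Hvcn1 had 20.7, 11.2 and 8.32 CPM against 11, 12.7 and 13.2 (edgeR adjusted p = 0.856). Among 13 genes of testis germ cells and meiosis none was higher in sperm and 5 of 8 tested were lower. Dmc1, the meiotic recombinase, had no sperm count and 10.4, 14.0 and 17.8 CPM in morulae. Piwil2, which encodes a piRNA-binding protein, had 5.64, 14.9 and 0 CPM in sperm and 75.8, 107 and 108 CPM in morulae (log2 difference -3.90, SE 0.77, edgeR adjusted p = 0.00217).

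Paternal RNAs linked to fertilization were represented by Prm2, Clu and Plcz1. For the mRNAs of Prm2 and Clu the paper cites transfer from sperm to oocyte, and no role of these RNAs was examined here. Clu encodes clusterin, a chaperone secreted in the epididymis. It had 419, 1450 and 3113 CPM in sperm A, B and C and 0.534, 1.99 and 0.114 CPM in morulae (log2 difference 10.86, SE 1.10, edgeR adjusted p = 6.82e-05). Plcz1 encodes the sperm phospholipase that starts calcium waves in the egg. It had 105, 26.1 and 10.4 CPM in sperm and no morula count, at least 385-fold higher in sperm (edgeR adjusted p = 0.000948). All 3 genes thus were near or at 0 in morulae. The morulae were picked after 72 h of culture, so these values do not show which RNAs sperm brought at fertilization. Prm2 and Plcz1 were highest in sperm A and lowest in sperm C, and Clu the reverse.

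Markers of cells other than sperm and epididymis were present in the sperm libraries, without a common order among them. Sperm A was highest and sperm C lowest in 6 of 7 erythroid, 3 of 12 stromal and 2 of 15 leukocyte genes. The reverse order was found in 0, 3 and 3 of them. Among all genes held by sperm 18.6% had the first order and 26.7% the reverse. Among those also under 1 CPM in morulae these shares were 32.4% and 22.0%. Leukocyte genes summed to 4580, 6436 and 7369 CPM in sperm A, B and C against 30.4 to 45.6 CPM in morulae, and 7 of 8 tested genes were higher in sperm. Most of that sum was Cd52, a surface glycoprotein gene of lymphocytes and of epididymal epithelium, with 4141, 5987 and 6857 CPM in sperm and 2 counts in the morula libraries together. Ptprc, the pan-leukocyte phosphatase, chosen here after its values were seen, had 24.5, 44.8 and 14.6 CPM in sperm. Erythroid genes summed to 587, 313 and 57.5 CPM in sperm against 1.29 to 2.06 CPM, with the globin gene Hbb-bs at 324, 189 and 31.2 CPM and no morula count. Stroma and smooth muscle genes summed to 1886, 832 and 793 CPM against 7.37 to 11.2 CPM, and all 8 tested were higher in sperm. Dcn, a matrix proteoglycan gene, had 280, 185 and 130 CPM in sperm and no morula count, and Sparc, a matrix glycoprotein gene, had 1181, 341 and 253 CPM against 4.80, 6.20 and 8.22. None of the 15 leukocyte, 7 erythroid or 12 stromal genes was at 0 in all sperm libraries. Their part in the epididymal and other differences was not tested, and in bulk RNA fewer cells of a type and less RNA per cell cannot be told apart.

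**Figure D2:**
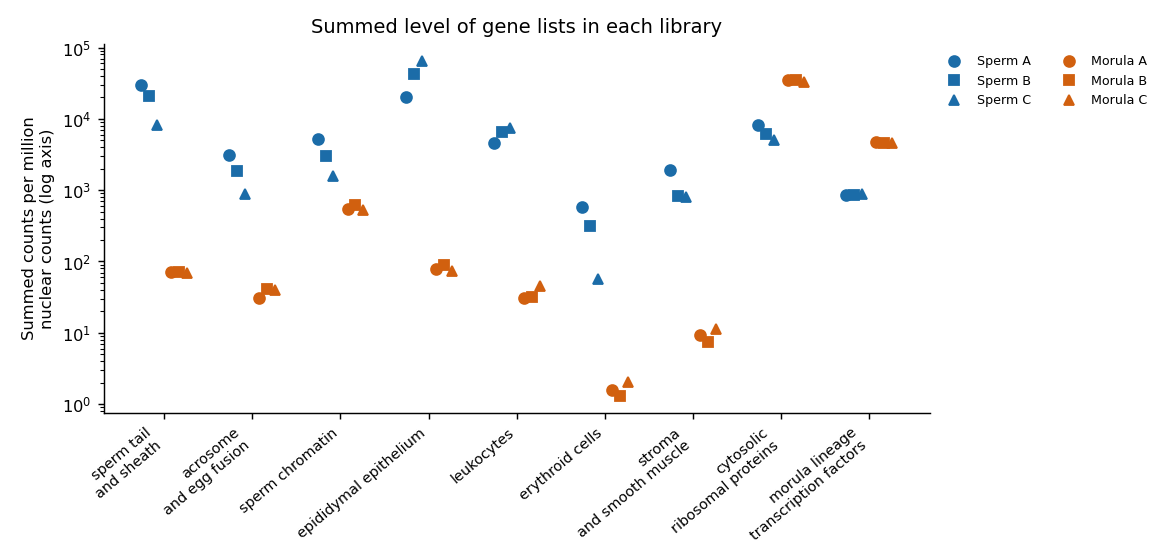
Summed CPM of nuclear counts (log axis) of 9 gene lists in each of the 3 sperm (blue) and 3 morula (orange) LFD libraries. Sums of tail, acrosome, chromatin, erythroid, stroma and ribosomal protein genes are highest in sperm A and lowest in sperm C. Those of epididymal and leukocyte genes are highest in C and lowest in A, and the leukocyte sum is mostly Cd52. Sums of ribosomal protein and morula transcription factor genes are higher in morulae.

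The most abundant RNA that morulae held and sperm lacked was Dppa3 (chr6:122626410-122630272, plus strand, GRCm38), also called Stella, a maternal factor that protects DNA methylation in the zygote. It had 3564, 4112 and 3753 CPM in morulae and no count in any sperm library, at least 4534-fold higher in morulae (edgeR adjusted p = 5.59e-06). Next came Fbxo15, an F-box gene of pluripotent cells, with 2858, 3153 and 3008 CPM, and Calcoco2, an autophagy receptor gene, with 2354, 2098 and 2379 CPM. Hmga2, a gene for a chromatin protein of embryonic cells, had 1655, 1473 and 1583 CPM, and Bhmt, which uses betaine to remethylate homocysteine, had 1317, 1174 and 1215 CPM. These 4 genes had no sperm count and were at least 3580-fold, 2720-fold, 1877-fold and 1476-fold higher in morulae. Trim43b, Pramel5, Khdc3, Crxos and Pramel7 completed the 10 most abundant, at 609 to 1056 CPM over the morula libraries and with bounds of 764-fold to 1138-fold. The morula libraries were close to each other for all 10 genes.

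Transcription factors of the morula lineages were mostly lower in sperm. Of 29 genes 27 were tested, 20 were lower in sperm and 3 higher, with a median log2 difference of -6.30, or -6.09 with absent genes at their bound, and 13 of the 29 had no sperm count. Nr5a2, an orphan nuclear receptor gene needed early in development, had 592, 584 and 600 CPM in morulae and no sperm count, at least 706-fold higher in morulae. Klf5, a Krüppel-like factor gene of trophectoderm and inner cell mass, had 833, 752 and 814 CPM in morulae and 13.2, 20.5 and 2.77 CPM in sperm (log2 difference -6.09, SE 0.54, edgeR adjusted p = 3.55e-05). As defining markers of the morula, chosen after their values were seen, Nanog had 156, 199 and 174 CPM and Tead4 228, 222 and 231 CPM, both with no sperm count. The 3 genes that were higher in sperm were Id2, Tfap2a and Gata3, the last 2 of which are named after their values were seen. Id2, an inhibitor of basic helix-loop-helix factors, had 119, 87.7 and 127 CPM in sperm and 2.24, 1.52 and 2.97 CPM in morulae (log2 difference 5.62, SE 0.37, edgeR adjusted p = 9.58e-06). Tbx3, a T-box factor gene, was held by both at the same range, with 415, 339 and 362 CPM in sperm and 390, 396 and 360 CPM in morulae (log2 difference -0.04, SE 0.19, edgeR adjusted p = 0.868), and the sign of this small difference changed when rRNA genes were left out (0.002). With all counts as the base Tbx3 was lower in sperm by 0.86 (edgeR adjusted p = 0.0309).

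Oocyte and 2-cell stage genes were mostly at 0 in sperm. Of 30 oocyte and maternal effect genes 23 had no sperm count, 13 were tested and 9 of these were lower in sperm, with a median log2 difference of -7.44, or -2.94 with absent genes at their bound. This median rested on few genes. It ranged from -7.63 to -0.91 with single libraries left out, the last without morula A with 7 genes tested, and was 0.35 at a mean of at least 10 CPM with 5 tested, 1 higher and 2 lower. The sum of the list was 4530 to 4964 CPM in morulae, most of it Dppa3 and Khdc3, which encodes a protein of the subcortical maternal complex and had 861, 752 and 846 CPM. The 1 higher gene, Tle6, also of that complex, had 23.5, 0.933 and 14.6 CPM in sperm and 2.46, 0.818 and 1.48 CPM in morulae, and the groups overlapped (log2 difference 3.01, SE 0.95, edgeR adjusted p = 0.0207). Its call was lost without sperm A (2.31), sperm C (2.92), morula B (2.71) or morula C (2.96). Of 16 matched 2-cell genes 14 had no sperm count, 5 were tested and all 5 were lower in sperm. Tcstv3, a gene of the 2-cell stage, had 14.6, 27.8 and 7.19 CPM in morulae and none in sperm, at least 19.6-fold higher in morulae.

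Of 25 tested epithelial and trophectoderm genes 8 were higher and 8 lower in sperm, beside 37.6% and 27.9% of all genes tested. The split was 14 and 8 without sperm A, 5 and 9 with all counts as the base, and 2 and 10 in the high-fat arm. Sfn, a scaffold protein gene of epithelia, had 5.64, 10.3 and 9.70 CPM in sperm and 1731, 1490 and 1286 CPM in morulae (log2 difference -7.44, SE 0.33, edgeR adjusted p = 4.53e-06). Cldn6, an embryonic claudin of tight junctions, had 129, 74.8 and 114 CPM in morulae and no sperm count, at least 127-fold higher in morulae. Krt19, a keratin gene of simple epithelia, was the reverse, with 511, 447 and 1056 CPM in sperm and 3 counts in the morula libraries together, a ratio of 6328 with a counting interval of 2163 to 30704. The median of the list was 0.47 and turned to -0.26 with all counts as the base, beside 0.36 and -0.55 over all genes.

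Genes of dividing and growing cells were lower in sperm. All 26 genes of DNA replication and the cell cycle were tested and all 26 were lower, at a median of -4.87 on the log2 scale, against 27.9% of all genes tested. Ccna2, a cyclin gene of S phase and mitosis, had 0.941, 3.73 and 8.32 CPM in sperm and 728, 674 and 684 CPM in morulae (log2 difference -7.23, SE 0.48, edgeR adjusted p = 9.58e-06). Kif11, a spindle motor gene, had no sperm count and 146, 151 and 152 CPM in morulae, at least 178-fold higher. The list summed to 240, 220 and 290 CPM in sperm A, B and C, so it was at a low level there but not at 0. Of 20 genes of the transcription machinery 15 were lower in sperm and 1 higher, at a median of -1.31. Polr1b, a subunit of the polymerase that makes rRNA, had 5.64, 2.80 and 10.4 CPM in sperm and 58.4, 80.8 and 64.3 in morulae (log2 difference -3.38, SE 0.45, edgeR adjusted p = 0.000279). Med14, a Mediator subunit gene, was the higher one, with 396, 512 and 589 CPM against 284, 284 and 249 (log2 difference 0.87, SE 0.22, edgeR adjusted p = 0.00713), and with all counts as the base its difference was 0.10 with no call.

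Translation genes were also lower in sperm, as were the chaperone and nucleolar genes among the largest RNAs of the morula. Of 84 cytosolic ribosomal protein genes, 76 were lower in sperm and 2 higher, at a median of -3.16, and their sum was 8168, 6168 and 4972 CPM in sperm against 33098 to 35257 CPM in morulae. Rps28 had no sperm count and 151, 137 and 125 CPM in morulae, at least 165-fold higher. Npm1 (chr11:33152287-33163206, minus strand, GRCm38), the nucleolar chaperone nucleophosmin, was the largest nuclear protein-coding RNA of morulae at 22664, 19006 and 21040 CPM, and stood at 140, 127 and 116 CPM in sperm (log2 difference -7.35, SE 0.30, edgeR adjusted p = 4.13e-06). The heat-shock chaperone gene Hsp90aa1 had 11475, 9784 and 10110 CPM in morulae and 18.8, 28.9 and 47.8 CPM in sperm, a log2 difference of -8.34 (SE 0.43, edgeR adjusted p = 5.54e-06). Its paralogue Hsp90ab1 differed less, with 7549, 8047 and 7760 CPM against 1427, 1354 and 1432 CPM (log2 difference -2.47, SE 0.21, edgeR adjusted p = 3.13e-05). Dnaja1, Hspa8, Eif2s2 and Ncl, genes of chaperones, translation initiation and the nucleolus, were lower by 6.27, 6.11, 5.69 and 3.16 on the log2 scale.

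**Figure D3:**
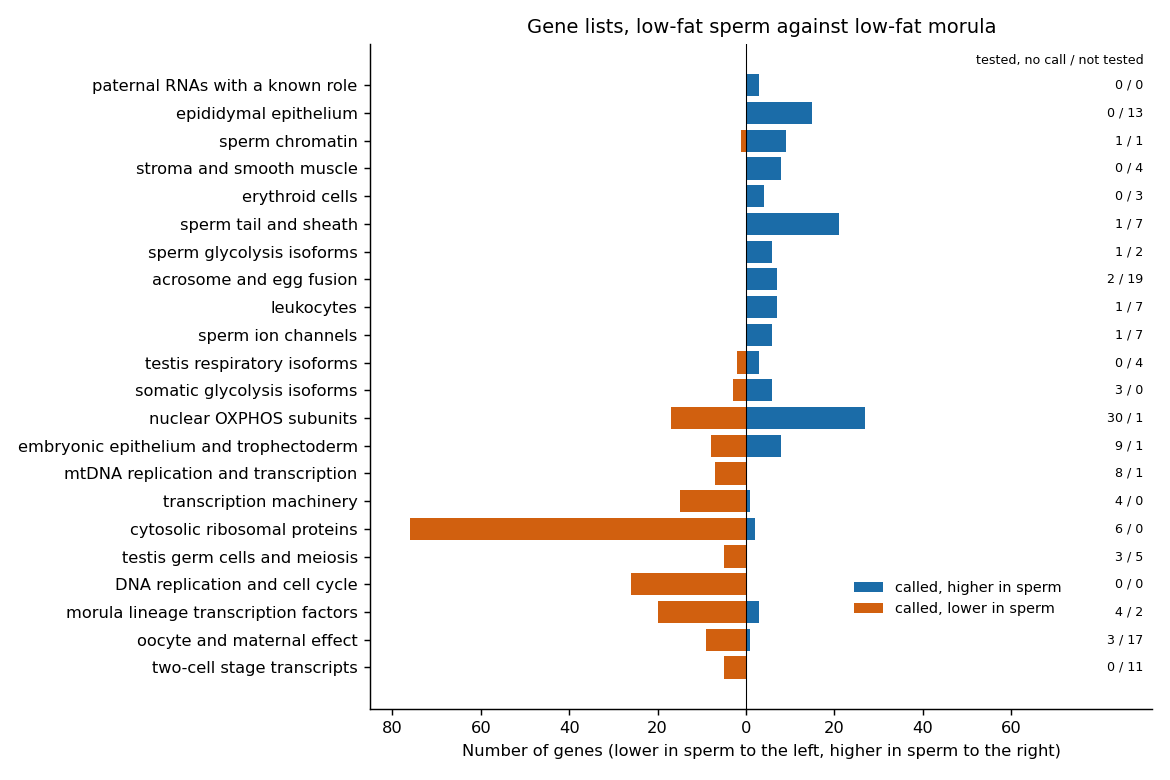
Number of genes of each list called higher (blue, to the right) or lower (orange, to the left) in LFD sperm than in LFD morulae by edgeR at an adjusted p under 0.05, ordered by median log2 fold change, with the numbers tested without a call and not tested at the right edge. Lists of sperm, epididymis and other somatic cells lie on the higher side, and DNA replication (26 of 26) and ribosomal proteins (76 of 84) on the lower side.

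Several abundant RNAs were held by both cell types. Lars2, the mitochondrial leucyl-tRNA synthetase gene, had 13083, 6358 and 3813 CPM in sperm A, B and C and 3216, 3518 and 3323 CPM in morulae (log2 difference 1.21, SE 0.42, edgeR adjusted p = 0.0302). Its call was lost with all counts as the base (0.28, edgeR adjusted p = 0.515) and with TMM over all genes (0.88, edgeR adjusted p = 0.11), and without any single morula library (edgeR adjusted p = 0.0858 to 0.102). Eef2 (chr10:81176631-81182498, plus strand, GRCm38), an elongation factor of translation, had 2439, 1581 and 1356 CPM in sperm and 1615, 1608 and 1644 CPM in morulae, and the groups overlapped (log2 difference 0.14, SE 0.26, edgeR adjusted p = 0.644). On a per-length scale (TPM) its mean level was 1186 in sperm and 1178 in morulae. With all counts as the base its log2 difference was -0.73 (edgeR adjusted p = 0.0458). Rpl4, a ribosomal protein gene, had 1410, 922 and 784 CPM in sperm against 2030, 1840 and 1967 in morulae (log2 difference -0.91, SE 0.26, edgeR adjusted p = 0.0139), and lost its call without morula A (-0.87) or morula C (-0.90). The translation regulator gene Eif4g2 and the adaptor protein genes Ywhae and Ywhaz were lower in sperm by 0.97, 0.98 and 0.75 on the log2 scale, the last without a call when morula C was left out (-0.69). Malat1, a long noncoding RNA of nuclear speckles, had 2182, 6312 and 8372 CPM in sperm and 900, 1222 and 1331 CPM in morulae (log2 difference 2.29, SE 0.46, edgeR adjusted p = 0.00248). B2m, the light chain of class I histocompatibility molecules, was held by both but far apart, with 2614, 5427 and 8003 CPM in sperm and 21.7, 24.3 and 28.4 CPM in morulae. The gene of biotype rRNA CT010467.1 took 108247, 66146 and 24585 CPM in sperm and 40574, 45606 and 40678 in morulae, and Gm23935, a 57-base gene annotated as a miRNA, took 6945, 4530 and 2319 CPM against 3734, 4743 and 3906. Both overlapped between the groups, were highest in sperm A and lowest in C, and were not called, although CT010467.1 was called higher without sperm C (log2 difference 1.04). Lars2 had the same order as CT010467.1 among the sperm libraries of the low-fat arm and of the high-fat arm. In HFD sperm A, B and C, Lars2 had 13243, 15672 and 25523 CPM, and CT010467.1 had 130068, 240176 and 295724. Of the windows taken from the longest Lars2 transcript 0% also occur in another gene. Whether reads of rRNA were counted on Lars2 was not tested, so its values need not be those of the synthetase mRNA alone.

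Promoters of these classes differed in how many CG pairs they hold, counted in the window from 250 bases before to 50 bases after the RefSeq start (GRCm38.p6). CG reads the same on both strands and cannot overlap itself, and 94.2% of all 27025 promoters hold at least 1. The median number of CG was 24 in the 3760 matched promoters of genes held by both cell types, 5 in the 197 of genes held by sperm and at 0 in morulae, 7 in the 109 of genes held by morulae and at 0 in sperm, and 7 over all promoters. A tail gene of sperm, a transcription factor gene of the morula and the elongation factor gene held by both are shown to let these counts be seen, with each CG in capitals. Smcp (chr3:92589024-92589323, minus strand) holds 0 CG, Nr5a2 (chr1:136960399-136960698, minus strand) holds 2 and Eef2 (chr10:81176381-81176680, plus strand) holds 34.
Smcp: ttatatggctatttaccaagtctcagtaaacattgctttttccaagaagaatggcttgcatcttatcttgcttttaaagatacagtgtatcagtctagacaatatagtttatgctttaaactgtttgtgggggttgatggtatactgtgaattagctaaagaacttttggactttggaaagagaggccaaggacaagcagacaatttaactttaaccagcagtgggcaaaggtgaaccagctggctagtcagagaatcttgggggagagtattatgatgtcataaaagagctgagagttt
Nr5a2: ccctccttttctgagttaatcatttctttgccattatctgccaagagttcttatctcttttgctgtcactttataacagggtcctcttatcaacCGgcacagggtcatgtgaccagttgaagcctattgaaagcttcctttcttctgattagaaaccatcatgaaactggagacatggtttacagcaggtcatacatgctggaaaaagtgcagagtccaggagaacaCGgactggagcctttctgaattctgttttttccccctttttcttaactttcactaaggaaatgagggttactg
Eef2: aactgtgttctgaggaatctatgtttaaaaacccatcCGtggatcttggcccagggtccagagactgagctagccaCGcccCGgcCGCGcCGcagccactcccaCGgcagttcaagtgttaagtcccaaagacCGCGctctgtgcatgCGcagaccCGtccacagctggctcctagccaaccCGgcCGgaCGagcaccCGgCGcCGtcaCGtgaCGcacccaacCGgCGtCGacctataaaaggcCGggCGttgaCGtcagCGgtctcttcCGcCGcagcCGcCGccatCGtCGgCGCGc
The counts describe these windows and carry no measure of methylation or binding.

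Nuclear genes of the respiratory chain had no common direction. Of 75 genes for subunits of oxidative phosphorylation 74 were tested, with 27 higher and 17 lower in sperm at a median of 0.50. Among all genes tested 37.6% were higher and 27.9% lower, at a median of 0.36, so the list was close to them. Sperm held 62 of the 75. With all counts as the base the same list gave 6 higher and 25 lower at a median of -0.33, beside -0.55 over all genes. Ndufa1, a complex I subunit gene, had 90.3, 115 and 131 CPM in sperm and 18.6, 15.2 and 15.4 in morulae (log2 difference 2.77, SE 0.27, edgeR adjusted p = 5.41e-05). Cycs, the somatic cytochrome c gene, had 0, 2.80 and 2.08 CPM in sperm and 46.4, 37.2 and 43.8 in morulae (log2 difference -4.65, SE 0.63, edgeR adjusted p = 0.000307). Atp5b, the catalytic subunit gene of ATP synthase and the most abundant of the list, had 621, 574 and 890 CPM against 2430, 2243 and 2380 (log2 difference -1.76, SE 0.24, edgeR adjusted p = 0.000312). Testis isoforms of respiratory and mitochondrial genes were few, 5 tested with 3 higher and 2 lower, and their median of 2.28 turned to -0.88 with all counts as the base. Spata19, a sperm mitochondrial gene, had 25.4, 21.5 and 2.08 CPM in sperm and no morula count. Cyct, the testis cytochrome c gene, had 0, 3.73 and 1.39 CPM in sperm against 5.34, 13.9 and 10.4, and its call (log2 difference -2.53, SE 0.89, edgeR adjusted p = 0.0331) was lost without sperm C (-2.39). Of 15 tested genes for mtDNA replication and transcription 7 were lower in sperm and none higher, at a median of -1.06. Lrpprc, which stabilizes mitochondrial mRNAs, had 31, 69 and 76.2 CPM in sperm and 345, 352 and 338 in morulae (log2 difference -2.55, SE 0.33, edgeR adjusted p = 0.000234), and Tfb2m, a mitochondrial transcription factor gene, was lower by 3.35.

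RNA of the mitochondrial genome took 63.5%, 64.8% and 43.5% of all counts in sperm A, B and C and 22.8%, 25.4% and 26.1% in morulae A, B and C. The means were 57.3% ± 11.9 (SD, n = 3) and 24.8% ± 1.78 (SD, n = 3), and the groups did not overlap (exact two-sided permutation p = 0.1, the smallest that 3 against 3 allows). Without mt-Rnr1 and mt-Rnr2 among the counts the share was 8.65% ± 3.4 (SD, n = 3) in sperm and 7.69% ± 0.94 (SD, n = 3) in morulae (exact permutation p = 0.8). Within mtDNA counts the rRNAs made up 93.4% ± 0.46 (SD, n = 3) in sperm and 74.8% ± 1.28 (SD, n = 3) in morulae (exact permutation p = 0.1). The rRNAs differed from each other. mt-Rnr2, the large subunit rRNA, took 65.1% of mtDNA counts in sperm and 45.9% in morulae, while mt-Rnr1, the small subunit rRNA, took 28.3% and 28.9% (exact permutation p = 0.4).

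CPM of all counts, the base used for mtDNA genes, gave 2 of 37 higher in sperm and 17 lower among 29 tested, beside 62.6% of all genes called and 37.6% called lower in sperm on that base. mt-Rnr2 had 420181, 419296 and 279977 in sperm and 105798, 113601 and 121466 in morulae on this scale (log2 difference 1.72, SE 0.29, edgeR adjusted p = 0.000912), and mt-Rnr1 had 175593, 182957 and 126563 against 67275, 73101 and 74260 (1.18, SE 0.28, edgeR adjusted p = 0.00488). Of the 13 protein-coding genes 9 were lower. mt-Nd2, a complex I subunit gene, had 1585, 2199 and 1213 CPM of all counts in sperm and 9211, 9943 and 10437 in morulae (log2 difference -2.57, SE 0.31, edgeR adjusted p = 0.000168). mt-Co1, the core subunit gene of complex IV, had 11220, 12016 and 7430 against 10532, 12217 and 12130, and the groups overlapped (log2 difference -0.19, SE 0.28, edgeR adjusted p = 0.589). Per nuclear count 6 genes were higher and 12 lower in sperm, and mt-Co1, mt-Nd1, mt-Nd4, mt-Nd5, mt-Nd6 and mt-Cytb turned to a positive sign. Per mtDNA count mt-Rnr2 alone was higher (0.50), mt-Rnr1 stood at -0.03, and 24 were lower (82.8% of the 29 tested, of which 86.2% were called in either direction).

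A run of 6 neighbouring protein genes in the middle of the mitochondrial genome was near or at 0 in sperm. mt-Co1 before them had 18993 to 36581 counts in a sperm library, and mt-Nd4 after them 5718 to 12654. mt-Co2, mt-Atp8, mt-Atp6 and mt-Nd4l had no count in any sperm library and 62.2 to 82.2, 37.2 to 46.9, 126 to 154 and 98.1 to 106 CPM of all counts in morulae, at least 199-fold, 120-fold, 387-fold and 292-fold higher there. mt-Co3 had 1 count over the sperm libraries and 662 over the morula libraries, a ratio of morula to sperm of 158.9 with a counting interval of 28.4 to 6285. mt-Nd3 had 35 counts in sperm and 3248 in morulae (log2 difference -4.48, SE 0.36, edgeR adjusted p = 2.49e-05). These genes encode subunits of complexes I, IV and V. Of the 75-base windows of mt-Co2, mt-Atp6, mt-Co3, mt-Nd4l and mt-Nd3, 97.8% to 99.9% also occur in a nuclear transcript of the GRCm38 annotation, and these 5 had 0 to 35 counts in sperm and 662 to 4837 in morulae. mt-Atp8 shares no window with an annotated nuclear transcript, and it overlaps mt-Atp6 only at its end (MT:7927-7969). The closest copies of mt-Co2 (chr1:24614885-24615565) and mt-Atp6 (chr1:24613974-24614651) leave a stretch between them. A copy of mt-Atp8 outside annotated transcripts would not be seen in this comparison. mt-Nd4 shares 61.5% of its windows, mt-Co1 39.8%, mt-Nd2 5.7% and the other tested protein genes under 2%. The closest copies of 7 of these genes lie in a block on chromosome 1 (chr1:24611535-24616197, minus strand), and those of mt-Nd2 and mt-Nd5 lie elsewhere. The block had 237, 294 and 232 counts in sperm A, B and C and 10823, 9697 and 10162 in morulae, or 81.5, 96.6 and 90.8 against 892, 846 and 857 CPM of all counts. How reads that match several places were counted is not given in the sources used here, and the part of these copies in the low values was not tested.

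**Figure D4:**
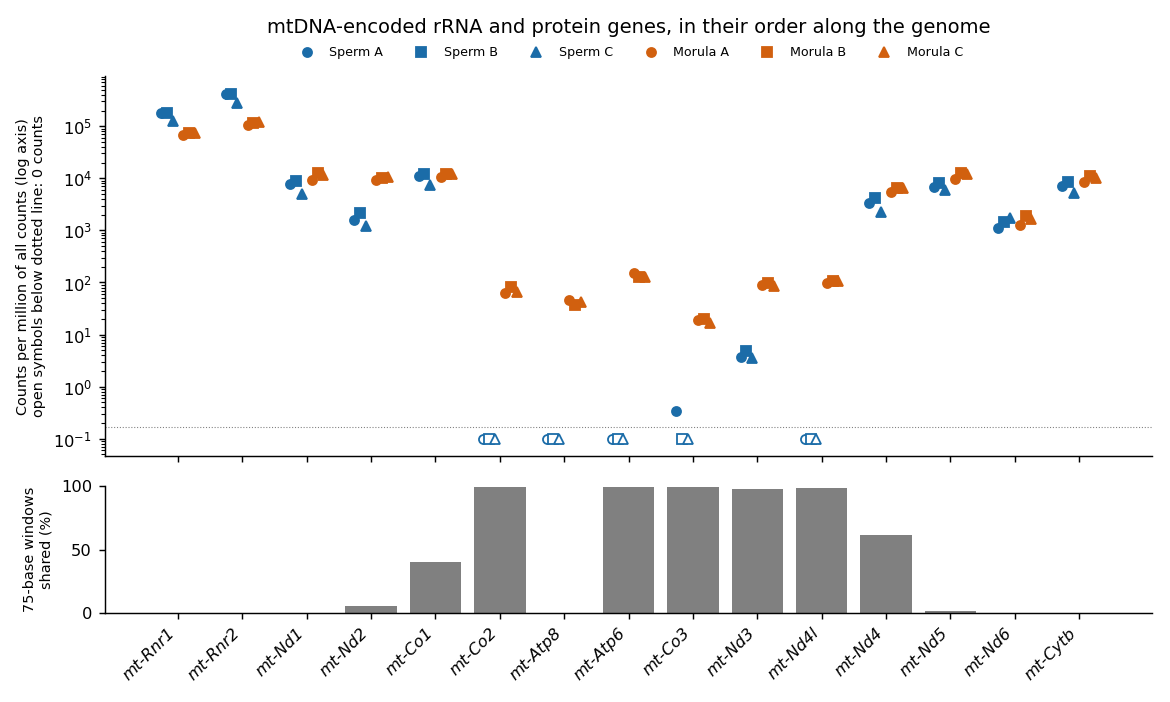
Upper panel, CPM of all counts (log axis) of the 2 rRNA and 13 protein genes of mtDNA in each LFD library, in genome order, with open symbols for 0 counts. Lower panel, the share of each gene's 75-base windows that also occurs in an annotated nuclear transcript. mt-Co2, mt-Atp8, mt-Atp6 and mt-Nd4l have no sperm count, and the 5 genes with over 90% of windows shared are the lowest in both cell types beside mt-Atp8.

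Mitochondrial tRNA genes gave few counts in either cell type. The 22 tRNA genes together had 115, 120 and 102 CPM of all counts in sperm A, B and C and 257, 386 and 423 in morulae. In CPM of mtDNA counts the sums were 200.5 ± 29.5 (SD, n = 3) in sperm and 1423 ± 259 (SD, n = 3) in morulae (exact permutation p = 0.1). Of 14 tested on the base of all counts 8 were lower in sperm and none was higher, and 7 of the 22 had no sperm count. Among those 7, mt-Ts1, mt-Td, mt-Tk and mt-Tg, which lie between mt-Co1 and mt-Nd3, had only 0, 7, 8 and 31 counts in morulae. mt-Tt was not among the 14 tested. It had 23 counts in sperm and 10 in morulae, and per nuclear count it was called higher in sperm (3.99, edgeR adjusted p = 0.00612). The sequences of 5 that span this range are given from the GRCm38 mitochondrial genome, written as DNA with the anticodon in capitals. mt-Tl1 (MT:2676-2750, plus strand) and mt-Tm (MT:3845-3913, plus strand) were the most abundant in morulae, mt-Tp (MT:15356-15422, minus strand) had the highest level in sperm relative to morulae among these 5, mt-Tf (MT:1-68, plus strand) lies at the start of the genome beside the rRNAs, and mt-Ty (MT:5260-5326, minus strand) had no sperm count.
mt-Tl1: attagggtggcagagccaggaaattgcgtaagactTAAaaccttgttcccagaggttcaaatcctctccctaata
mt-Tm: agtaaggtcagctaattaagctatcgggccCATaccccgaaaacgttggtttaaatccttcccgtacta
mt-Tp: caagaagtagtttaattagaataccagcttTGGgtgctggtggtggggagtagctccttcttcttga
mt-Tf: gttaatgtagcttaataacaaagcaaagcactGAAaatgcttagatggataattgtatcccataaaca
mt-Ty: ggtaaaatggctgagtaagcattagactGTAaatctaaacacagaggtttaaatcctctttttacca
All 5 are shorter than or as long as a read of 75 bases, so a read over them can also cover a precursor. mt-Tl1, which carries leucine and lies right after mt-Rnr2, had 37.1, 42.0 and 23.1 CPM of all counts in sperm and 128, 168 and 175 in morulae (log2 difference -2.20, SE 0.34, edgeR adjusted p = 0.000583). mt-Tm, which carries methionine, had 10.3, 13.5 and 9 against 42.4, 57.6 and 59.9 (log2 difference -2.28, SE 0.36, edgeR adjusted p = 0.000603). For neither did the libraries of the groups overlap. mt-Tf, which carries phenylalanine, had 12, 12.2 and 13.3 against 15.4, 15 and 15.3, which did not overlap but was not called (log2 difference -0.29, SE 0.37, edgeR adjusted p = 0.521). mt-Tp, which carries proline, had 21.3, 17.4 and 22.7 against 10.6, 14.0 and 14.8 (log2 difference 0.64, SE 0.37, edgeR adjusted p = 0.162), and per nuclear count it was higher in sperm by 1.49 (edgeR adjusted p = 0.00362). mt-Ty, which carries tyrosine, was at 0 in sperm and at 5.19, 12.7 and 14.5 in morulae, at least 30.5-fold higher there.

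Whether the mates of a pair were counted apart can be looked for in the counts. Were they, low counts would mostly be even. Among nuclear genes with 1 to 20 counts, even numbers made up 40.7% ± 0.54 (SD, n = 3) in sperm and 42.3% ± 0.60 (SD, n = 3) in morulae, so an excess of even counts was not seen in the paired libraries. Fold changes varied with gene length. The median log2 difference was -3.55 in 42 genes under 200 bases, -3.14 in 289 genes of 200 to 500 bases and -0.94 in genes of 500 to 1000 bases. It was 0.33, 0.17, 0.47 and 0.78 in genes of 1000 to 2000, 2000 to 4000, 4000 to 8000 and at least 8000 bases. This order rested on genes of low level: among genes with a mean of at least 10 CPM in either group the difference between short and long genes had the opposite sign (0.18 against -1.72).

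Fold changes also varied with the share of a gene that is not its own. For each gene the 75-base windows of its longest transcript were taken at steps of 5 bases. The share of them that also occurs in a transcript of another gene was computed, a description added after the counts had been seen. The 8059 tested genes with no such window had a median log2 difference of 0.76, with 43.1% called higher in sperm and 22.5% lower. The median was 0.17 in 3224 genes with up to 10% of windows shared, -0.53 in 1783 genes with over 10 to 50%, -2.97 in 437 genes with over 50 to 90% and -5.09 in 124 genes with over 90%. In the last group 6.45% were called higher in sperm and 83.9% lower. The order of these medians depended on gene length. Among genes of 1000 to 2000 bases the 5 medians were 1.10, 0.07, -1.27, -3.48 and -6.51. Genes of 2000 to 4000 bases had 0.62, -0.13, -0.66, -2.82 and -7.49, and genes of 4000 to 8000 bases 0.65, 0.16, 0.00, 0.25 and 0.38. Few genes stood behind the lower values: with over 50 to 90% shared there were 87, 112 and 80 in these lengths, and with over 90% 18, 18 and 11.

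**Figure D5:**
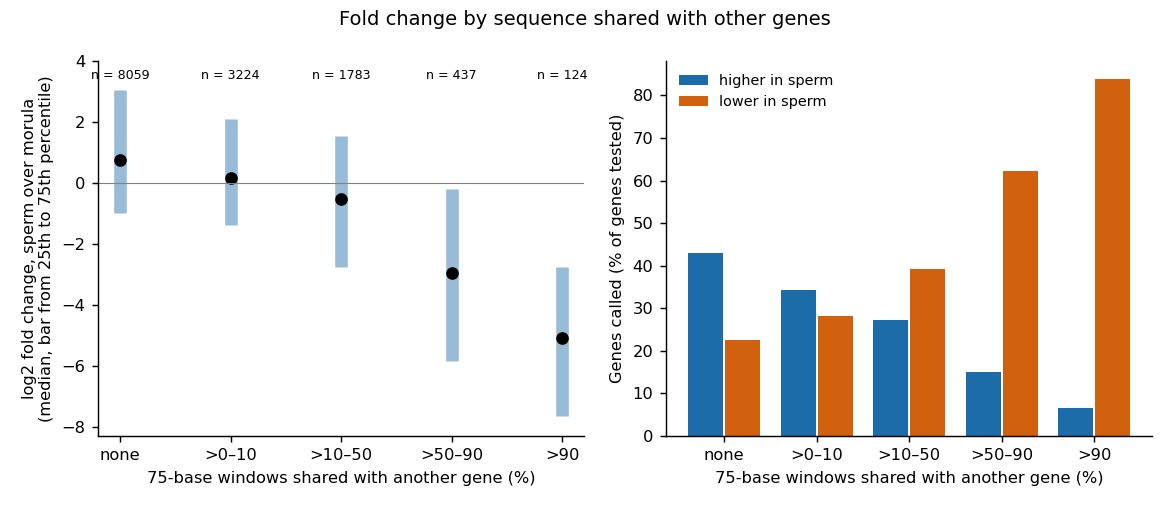
Left panel, median log2 fold change of LFD sperm over LFD morula (points, with bars from the 25th to the 75th percentile) for tested nuclear genes grouped by the share of their 75-base windows that another gene also holds; right panel, percent of the tested genes called higher (blue) or lower (orange) in sperm. The median goes from 0.76 with no shared window to -5.09 with over 90% shared, and genes called lower go from 22.5% to 83.9%.

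The lists differ in how far this property touches them. Ribosomal protein genes shared a median of 26.7% of their windows. In the 62 with over 10% shared, 58 were lower in sperm at a median of -4.14, and in the 22 with up to 10% shared 18 were lower at a median of -1.68. Of the 4 with no shared window, 2 were lower and 1 was higher. Replication and cell cycle genes were as low without shared windows, all 12 such genes being lower at a median of -4.87. Among the 44 respiratory chain genes with no shared window 24 were higher and 6 lower in sperm, and among the 16 with over 10% shared 2 were higher and 8 lower. Of the abundant morula RNAs, Npm1 shares 30.8% of its windows, Hsp90aa1 53.0%, Hspa8 40.8%, Dnaja1 26.2%, H3f3a 28.0%, Khdc3 40.1% and Trim43b 34.5%. Others share few or none, with 0% in Fbxo15, 0.0615% in Ncl, 0.816% in Hsp90ab1, 1.36% in Eif2s2, 1.74% in Hmga2, 3.95% in Dppa3, 4.52% in Calcoco2 and 9.77% in Bhmt. Genes with over 50% of their windows shared made up 18.1% of those held by morulae and under 1 CPM in sperm, 1.25% of those held by both and 4.12% of all tested. The part of shared sequence, read layout and cell type in these differences cannot be told apart with these libraries.

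The same comparison in the high-fat arm, with other libraries for both cell types from the same 2 tables, gave 7141 calls among 13082 genes tested (54.6%), 3101 higher in sperm (23.7%) and 4040 lower (30.9%), and its median gene stood at -0.51. Of the 12317 genes tested in both arms 5633 were called in both. In 5614 of them the direction was the same, which is 70.4% of the LFD calls and 83.9% of the HFD calls among these genes, and in 19 it was the opposite. Smcp had 25029, 11977 and 25781 CPM in HFD sperm and 0.116 CPM or less in HFD morulae, and Crisp1 had 12291, 11977 and 7594 CPM and none. Dppa3 had no count in HFD sperm and 3453, 3207 and 3788 CPM in HFD morulae. Nr5a2 had 0, 0 and 1.30 CPM in HFD sperm, so that its absence from sperm held in 5 of the 6 sperm libraries of both arms. Tail genes were higher in HFD sperm in 22 of 22 tested, epididymal genes in 12 of 13 and leukocyte genes in 12 of 12. Replication genes were lower in 25 of 26 tested and ribosomal protein genes in 73 of 84. The respiratory chain list stood at 2 higher and 21 lower at a median of -0.40 where the low-fat arm gave 27 and 17 at 0.50, a difference between the arms that was not tested. Over all genes these medians were -0.51 and 0.36. Of the 279 genes held by LFD sperm with no count in LFD morulae 132 (47.3%) were in that class in the high-fat arm, and of the 210 of the reverse class 152 (72.4%) were. The mtDNA share was 80.6% ± 3.33 (SD, n = 3) in HFD sperm and 25.5% ± 1.58 (SD, n = 3) in HFD morulae (exact permutation p = 0.1), and the rRNA share of mtDNA counts 93.0% and 73.2%. Without mt-Rnr1 and mt-Rnr2 among the counts the mtDNA share was 22.7% ± 3.07 (SD, n = 3) in HFD sperm and 8.39% ± 0.505 (SD, n = 3) in HFD morulae (exact permutation p = 0.1), where the groups did not overlap. The HFD sperm libraries held 467177 to 883085 nuclear counts, and genes of biotype rRNA took 13.0% to 29.6% of these, against 2.46% to 10.8% in LFD sperm. The part of this depth and of these rRNA genes in the high-fat values was not tested.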

How the data were processed

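Total RNA of sperm and of morulae was sequenced as Nextera libraries on an Illumina HiSeq, per the study's methods, and the authors deposited raw counts per gene, one table per cell type, made with BBDuk trimming, STAR alignment and featureCounts on GRCm38 (build per the submitters' processing notes; tool versions are not given in the sources used here). The deposited counts are not normalized. Strand and multi-mapping settings are not given in the sources used here, so reads of overlapping, antisense or near-identical genes cannot be told apart. Samples were grouped by title and treatment label (the description field names the other diet for 3 of the 6 morula samples), and columns were matched to groups by the diet letter in their names. The other tables of the series were not used here.

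Of 54838 and 55487 genes, 54500 were joined by identifier, 53176 with the same length in both tables, and the join left out 0.0398% to 0.202% of counts. In sperm 17191 to 19416 nuclear genes had a count, and in morulae 20786 to 21446. The 10 largest nuclear genes took 12.8% to 18.4% of nuclear counts in sperm and 10.9% to 11.4% in morulae. Genes of biotype rRNA took 6.64% ± 4.19 (SD, n = 3) of the nuclear counts of sperm and 4.23% ± 0.288 (SD, n = 3) of those of morulae. Depth sets the floor of 3 counts given for absent genes, and intervals for ratios of 1 to 3 counts are exact and cover counting error only.

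Counts were tested in R 4.3.3 with edgeR 4.0.16 (glmQLFit and glmQLFTest, two-sided), using filterByExpr at a minimum count of 10 and the total of nuclear counts of a library as its size, with Benjamini-Hochberg adjustment over all genes and a threshold of 0.05. For mtDNA genes the size was the total of all counts. Shares were compared by exact two-sided permutation over libraries (20 arrangements). CPM held-or-absent classes, gene length, even counts and promoter CG were described without a test. TPM values were computed here from counts and the lengths in the tables. Other settings were all-gene totals, TMM, DESeq2 1.42.0, limma-voom (limma 3.58.1), other filters, both diets in the fit, each library left out, and, chosen after seeing the data, rRNA genes left out and the windows of 75 bases shared between genes. The test was tried on simulated counts with known changes. The members and lists were chosen with earlier results of these data known, and list medians and counts are descriptions beside those of all genes.

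Named genes are the 10 highest means in each cell type, the 10 largest called and non-overlapping differences each way with a mean of at least 10 CPM in the higher group, the 10 most abundant held by a cell type and at 0 in the other, the 10 highest in both, per list the largest and smallest difference and the highest mean in each cell type, all mtDNA genes, and Prm2, Clu and Plcz1. Genes without an official symbol were not named, and some items are not reported here. RefSeq promoters and the GRCm38 mitochondrial genome gave the sequences.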

Additional observations from a re-analysis of the deposited data

How the results depend on the processing

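With all counts as the base 3314 genes were called higher in sperm, and 7731 without a filter on low counts, against 5143. Genes held by sperm numbered 4493 in CPM of all counts (7013 in nuclear CPM), and those held by both 3071 in TPM (4646). Sperm-held genes under 1 CPM in morulae numbered 438 at a threshold of 20 CPM and 426 in CPM of all counts (694), and those at 0 in morulae 173 in CPM of all counts and 536 with morulae thinned to the sperm depth (279). Morula-held genes under 1 CPM in sperm numbered 516 and 184 at 5 and 20 CPM (309), and those at 0 in sperm 346 and 135 at these thresholds and 386 in TPM (210). Of mtDNA genes 6 were higher in sperm per nuclear count and 1 per mtDNA count (2). The difference in mtDNA share was 0.963 points without the rRNAs (32.5). Even counts among counts of 1 to 6 were 37.061% in sperm and 39.698% in morulae, and the length contrast was 0.176 among genes of at least 10 CPM (-1.72). Leaving out each library in turn gave 7036 to 10136 calls, 4308 to 5880 higher and 2712 to 4256 lower, with 2 to 3 mtDNA genes higher and 12 to 19 lower, a mtDNA share difference of 28.7 to 39.4 points and a length contrast of -2.27 to -0.03. Held classes then ranged from 7013 to 7981 (sperm), 6832 to 7038 (morula), 4703 to 5058 (both), 743 to 864 and 308 to 359 (sperm-held, under 1 CPM and at 0 in morulae), and 327 to 424 and 222 to 294 (the reverse).

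Medians of lists changed sign for oocyte genes at a mean of 10 CPM (0.3546), for embryonic epithelium (-0.2624) and nuclear OXPHOS subunits (-0.3319) with all counts as the base, and for testis isoforms of respiratory genes with all counts (-0.8848), TMM over all genes (-0.4129), no filter (-0.3391), and over single libraries left out (-0.8593 to 4.2704, negative without sperm A or C). With all counts as the base the log2 difference changed sign for Cd68 (-0.147), Ddx4 (-0.537), Eef2 (-0.726), Zbed3 (-0.381), Hvcn1 (-0.776), Gm23935 (-0.774), Spaca6 (-0.663) and CT010467.1 (-0.314), none called but Eef2. Under TMM over all genes, TMM over nuclear genes and DESeq2 it did so for Eef2 (-0.207, -0.233, -0.187), Zbed3 (-0.039, -0.066, -0.041), Hvcn1 (-0.24, -0.266, -0.23), Gm23935 (-0.184, -0.209, -0.158) and Spaca6 (-0.21, -0.236, -0.205). Tbx3 stood at 0.002 without rRNA genes. Over single libraries left out the range was -0.125 to 0.023 for Tbx3, -0.144 to 0.309 for Eef2, -0.021 to 0.686 for Zbed3, -0.349 to 0.37 for Hvcn1 and -0.27 to 0.475 for Gm23935, with the sign changed without sperm B for Tbx3, sperm C for Zbed3 and sperm A for the others. The cause of these changes was not tested beyond the base that each setting uses. Of the single-gene and list values, 1756 kept direction and side of the threshold, 37 changed sign, 37 lost a call and 7 gained one. In 2 list medians the sign stayed but the size moved.

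No paired analysis was possible because the numbers in the column names cannot be tied to the numbers in the sample titles, and sperm and morulae with the same number are not said to share a father. The planned fit with that block was therefore not run. For the 37 mtDNA genes, whose lengths are the same in both tables, dividing by length alone leaves the fold unchanged. TPM also rescales by each library's per-length total over nuclear genes, so its folds differ. In TPM mt-Co1 had a mean of 36868 in sperm and 24160 in morulae. The morula libraries together hold 7.46 times as many nuclear counts as the sperm libraries, so absence from sperm is bounded at 0.838 CPM, and the cell type, the count table and single against paired reads cannot be told apart.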
